A study of Mus musculus with 36 samples.

Results

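The CTCF peaks of day 2 and of day 4 of mouse embryonic stem cells were set against each other, interval by interval. The members were all intervals on chromosomes 1 to 19, X and Y in the deposited CTCF peak lists of those days, 28137 on day 2 and 36787 on day 4. Together they made up 64924 of the 182783 peaks in the 8 lists of the series. A peak was called shared when it overlapped a peak of the other day by 1 bp or more, and otherwise alone.

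The series holds 36 samples of these cells, in 12 groups of 3: CTCF precipitates, precipitates of MBD3 (part of the NuRD chromatin remodelling complex), and input, on days 0, 2, 4 and 6. The groups used here are the 3 CTCF samples of day 2 and the 3 of day 4, with the CTCF lists of days 0 and 6 and the MBD3 lists as further readouts. All groups share 1 culture description, with LIF, KnockOut Serum Replacement and irradiated mouse embryonic fibroblasts as feeders. The names of the lists call the cells WT, and the labels give the day without saying what was done to the cells between days or whether samples of a day are separate cultures. A peak list carries no RNA, so the cell type could not be checked against its markers, and binding in the feeder cells cannot be told apart from binding in the stem cells. Each list was called on the pooled samples of its day, so there is no spread between replicates and no test between days, and intervals given below are exact binomial intervals at 95% (Clopper-Pearson) that cover counting error only.

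CTCF is a zinc finger protein that binds DNA through a long, asymmetric motif, mostly away from promoters. At many of its sites it halts cohesin as that ring complex extrudes chromatin loops, and pairs of sites facing each other mark loop ends and the borders of domains. It binds at imprinting control regions, in Hox clusters and at the alternative promoters of the clustered protocadherins, where DNA methylation can block it.

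The promoters of 6 genes are shown because each holds a CTCF motif beside the summit of a peak, 3 at shared peaks and 3 at peaks of day 4 alone. The sequences are from the RefSeq promoter table (GRCm38.p6, the mm10 coordinates) and are read along the gene's strand, with the motif in capitals. The motif searched, on both strands, was CCA, any 2 bases, AG, any 2 bases and GGC, in that order.
Rapgef1: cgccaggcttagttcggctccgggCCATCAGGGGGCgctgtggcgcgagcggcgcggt
Lsm11: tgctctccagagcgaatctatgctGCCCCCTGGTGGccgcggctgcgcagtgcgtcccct
Adprhl2: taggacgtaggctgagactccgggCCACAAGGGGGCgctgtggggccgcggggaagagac
Tbx3os2: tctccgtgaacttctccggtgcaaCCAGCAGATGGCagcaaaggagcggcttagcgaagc
Rtn4: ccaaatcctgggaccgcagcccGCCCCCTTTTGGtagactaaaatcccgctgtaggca
Defb36: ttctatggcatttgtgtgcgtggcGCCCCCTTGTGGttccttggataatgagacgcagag

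The first 3 belong to shared peaks. The Rapgef1 sequence (a nucleotide exchange factor for the small GTPase Rap1) is chr2:29619662-29619719 on the plus strand, and its peak summit lay 15 bp from the motif. Its fold enrichment, which is the authors' ratio of fragments at the summit to the expected background, was 42.9, 22.7, 35.4 and 33.2 on days 0, 2, 4 and 6. At Lsm11 (a subunit of the U7 particle that processes histone RNA; chr11:45945003-45945062, minus strand) the folds were 48.3, 16.0, 28.2 and 29.0, and at Adprhl2 (an enzyme that removes ADP-ribose; chr4:126321724-126321783, minus strand) they were 30.2, 12.2, 18.6 and 19.8. At each of the 3 the day 2 value was the lowest of the 4. This was not particular to these genes, since over all shared sites the median fold was also lowest on day 2. A fold depends on the background of its own list, and folds are set side by side throughout without being tested as a change.

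The 3 others had no peak on day 2 and had one on each other day. Tbx3os2, a long noncoding RNA gene beside Tbx3 (chr5:119691300-119691359, minus strand), had folds of 7.06, 12.2 and 15.5 on days 0, 4 and 6. Rtn4, which encodes a reticulon of the endoplasmic reticulum (chr11:29692648-29692705, plus strand), had 4.00, 8.40 and 5.69. Defb36, a beta-defensin gene (chr2:152604169-152604228, plus strand), had 8.57, 8.26 and 8.81. The motif matches of both classes lay from 0 to 29 bp from the day 4 summit. In Lsm11, Rtn4 and Defb36 the motif read on the strand opposite to the gene.

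Over the promoter table the motif was found in 2.43% of 32851 promoters of 300 bases (250 before the start and 50 after it). Among promoters under a shared summit of day 4 it was in 217 of 1168, or 18.6% (16.4 to 20.9). Under a summit of day 4 alone it was in 35 of 319, or 11.0% (7.76 to 14.9), and under a summit of day 2 alone in 1 of 23, or 4.35% (0.11 to 21.9). Promoters with no summit on either day held it in 1.73%. With the A of the leading CCA left free as well, the shares in the same order were 45.5%, 27.0%, 8.70% and 7.03%, against 8.61% of all promoters. Median GC content was 62.0%, 61.0% and 63.0% for the 3 classes with a summit and 52.3% without one. A match is a description of these letters and not a bound site, and the 1 match of day 2 alone lay past the start of Igfbp4 and was not printed.

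Nearly all day 2 peaks had a counterpart on day 4, and the converse held for fewer. Of the day 2 peaks 26380 overlapped a day 4 peak (93.8%, 93.5 to 94.0) and 1757 did not, a share of 6.24% (5.96 to 6.53). Of the day 4 peaks 26334 overlapped a day 2 peak (71.6%, 71.1 to 72.0) and 10453 did not, a share of 28.4% (28.0 to 28.9). The lists differ in length. A -log10 q of 10 or more on both days left 654 day 2 peaks and 8828 day 4 peaks alone, including peaks whose counterpart fell below that limit. With both lists held to the same number of peaks, those of highest -log10 q, 3967 day 2 peaks and 4015 day 4 peaks were alone. Since peaks matched almost wholly one to one, lists of equal number leave nearly equal numbers alone by construction, and this setting says nothing about the direction.

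Peaks found on both days were the same places to within a few base pairs. Of the shared peaks, 26255 pairs matched one to one, and their summits lay a median of 8 bp apart, with 98.6% of pairs within 50 bp. Joined peaks were rare, with 9 day 2 peaks over several day 4 peaks and 58 day 4 peaks over several day 2 peaks. The order of sites by strength was less alike: across the pairs Spearman's rho was 0.59 for fold and 0.58 for width, given as a description over sites that share 2 pooled lists. Of the 100 strongest on day 4, 31 were among the 100 strongest on day 2.

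The alone peaks were mostly the weak peaks of their own list. The share of day 4 peaks found on day 2 went from 23.6% in the lowest decile of fold (median 3.54) to 99.2% in the highest decile (median 18.2). For day 2 peaks the share found on day 4 went from 75.9% to 99.8%. Just 29 of the 3679 day 4 peaks in the highest decile lacked a day 2 peak, and 6 of the 2814 day 2 peaks in theirs lacked a day 4 peak. From the deposited fold and p-value the number of fragments over each summit could be worked back as a whole number for all peaks but 1. Its median was 70 at shared peaks of day 4 and 25 at day 4 alone peaks, and 56 and 21 at the corresponding peaks of day 2.

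**Figure D1:**
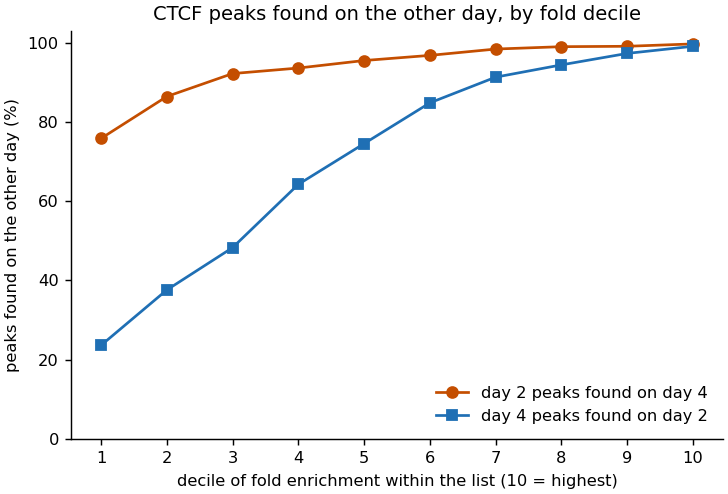
Share of CTCF peaks found on the other day (%, vertical axis) by decile of fold enrichment within the peak's own list (horizontal axis, 10 highest), circles for day 2 peaks and squares for day 4 peaks. The day 4 share starts at 23.6% and the day 2 share at 75.9%, and both end above 99%.

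The lists also differ in how weak a peak could enter them. The lowest background level shared by many peaks, which stands in for the genome-wide expectation, was 2.67 fragments on day 2 and 1.83 on day 4. At that level the weakest peaks had 10 fragments on day 2 and 8 on day 4. How far this entry level sets the classes was not tested.

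Alone peaks were narrow. Median width was 203 bp for day 2 alone (quartiles 183 to 244) against 258 bp for shared peaks of day 2 (218 to 302). It was 215 bp for day 4 alone (188 to 255) against 319 bp for shared peaks of day 4 (268 to 370). Within the shared pairs, 83.6% were wider on day 4 and 16.0% wider on day 2, with a median difference of 53 bp (quartiles 17 to 92). Within deciles of fold the alone peaks of day 4 stayed narrower than the shared ones, from 198 against 227 bp in the lowest decile to 307 against 366 bp in the highest. On day 2 this held for the lowest 9 deciles, and in the highest the 6 alone peaks had a median of 326 bp against 308 bp.

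**Figure D2:**
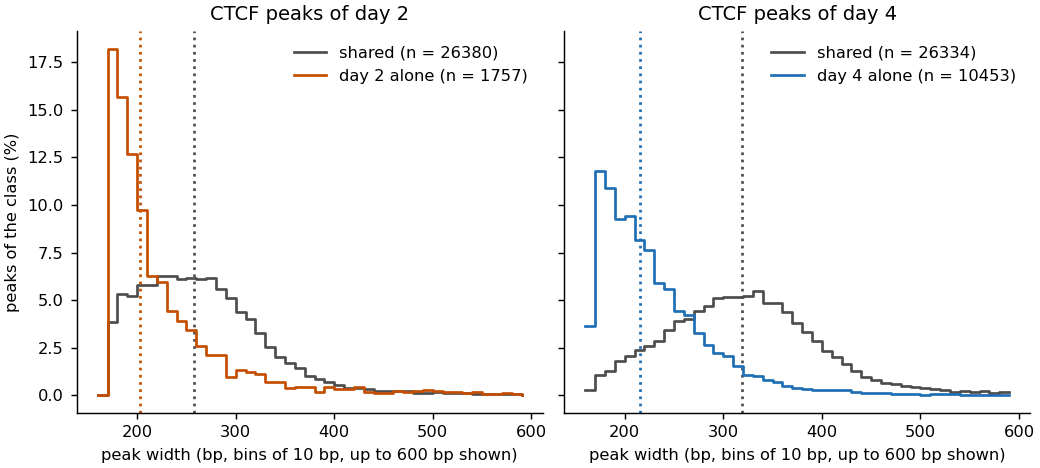
Widths of CTCF peaks (bp, horizontal axis, bins of 10 bp) as a percentage of each class (vertical axis), for the day 2 list on the left and the day 4 list on the right, with dotted lines at the class medians. Alone peaks pile up near the shortest widths, with medians of 203 and 215 bp, and shared peaks have medians of 258 and 319 bp.

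The widest shared site of the day 4 list ran over 4342 bp, at chr12:59034743-59039084, 4008 bp from an end of Trappc6b (a subunit of the TRAPP transport complex). It measured 4417, 4273, 4342 and 4157 bp on days 0, 2, 4 and 6 and held 12 summits on day 4. The site that widened most towards day 4, chr8:123105877-123106877, 633 bp from an end of the ribosomal protein gene Rpl13, measured 289 bp on day 2 and 1001 bp on day 4, and 1019 and 982 bp on days 0 and 6. In Astn1 (astrotactin, which acts in neuronal migration) the widths were 193 bp on day 2 and 898 bp on day 4, and in Vac14 (a scaffold of the lipid kinase PIKfyve) 193 and 847 bp. At these 3 sites day 2 was the narrowest of the 4 days, but they were picked for a day 2 width far below that of day 4. In the opposite direction, a site 13294 bp from an end of Cyp8b1 (a hydroxylase of bile acid synthesis) measured 1899 bp on day 2 and 644 bp on day 4. A site in Zfp704 measured 1642 and 1085 bp, and a site in Zfp993 measured 816 and 293 bp. On days 0 and 6 the widths were 2090 and 494 bp near Cyp8b1, 1748 and 723 bp in Zfp704, and 315 and 343 bp in Zfp993. Day 2 was thus the widest of the 4 days in Zfp993 only.

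The lists of days 0 and 6 took no part in forming the classes, and they separated them. Of the shared peaks 96.8% lay on a CTCF peak on both of these days. Of the day 4 alone peaks 73.5% (72.7 to 74.4) lay on a day 0 peak and 70.8% (69.9 to 71.7) on a day 6 peak, 59.1% on both and 14.8% on neither. Of the day 2 alone peaks 43.4% (41.1 to 45.8) lay on a day 0 peak and 36.0% (33.8 to 38.3) on a day 6 peak, 27.5% on both and 48.0% on neither. So 6181 sites of day 4 alone were called on days 0, 4 and 6 and not on day 2, and 844 sites of day 2 alone were called on that day and no other.

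**Figure D3:**
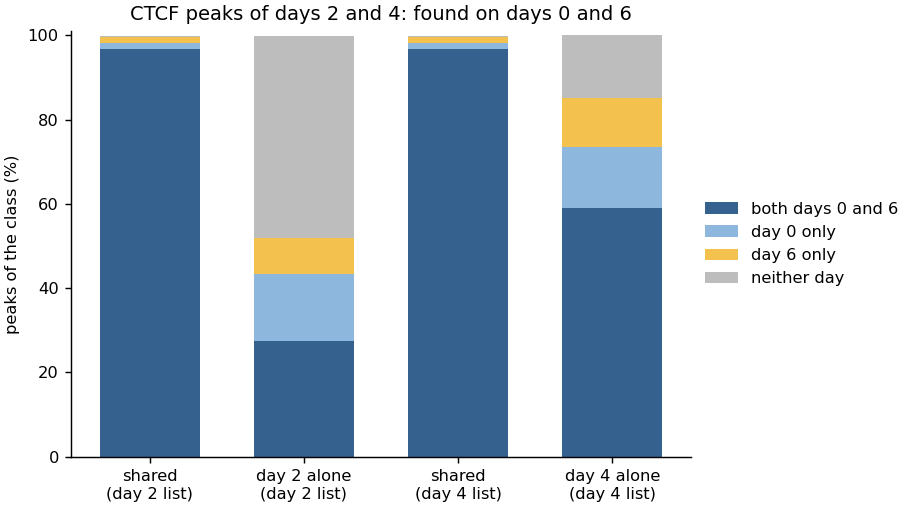
Share of each class of CTCF peaks (%, vertical axis) that lay on a CTCF peak of both days 0 and 6, of 1 of them, or of neither, for shared and alone peaks of each list. Neither day makes up 48.0% of day 2 alone and 14.8% of day 4 alone, and under 1% of shared peaks.

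The difference from shared peaks was also taken among peaks of similar strength in their own list. A shared peak was by definition called on the other day as well. Such deciles therefore do not hold strength on the other days equal, and the cause of the difference was not tested. Within deciles of fold, the share of day 4 alone peaks minus that of shared peaks was -21.5 percentage points on day 0 and -22.4 on day 6, and within deciles of the fragment number it was -15.9 and -17.2 points. The corresponding gaps for day 2 alone were -53.7 and -60.4 points by fold and -47.0 and -56.6 by fragments. Strong alone peaks were more often present on the outer days. Of the 5344 day 4 alone peaks with a -log10 q of 10 or more, 79.3% were on both days 0 and 6 and 3.54% on neither. Of the 290 such day 2 alone peaks 49.7% were on both and 27.9% on neither.

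Sites of day 4 alone sat low in the other lists too. The 7612 day 0 peaks that met a day 4 alone peak and no shared one had a median percentile of 39.3 in the day 0 list by fold, against 71.7 for those on shared peaks. In the day 6 list the medians were 27.4 and 64.6. Peaks of day 0 with no peak on day 2 or day 4 numbered 13248 and had a median percentile of 16.0.

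The strongest shared site on day 4 lay in Prkar2b, a regulatory subunit of protein kinase A, at chr12:31967582-31967948, inside the gene and 9132 bp from its nearer end. Its CTCF folds were 32.9, 22.0, 56.4 and 47.7 on days 0, 2, 4 and 6, and an MBD3 peak lay on it on every day. The second, in Mmrn2 (an extracellular matrix protein of blood vessels; chr14:34401119-34401590), had folds of 25.8, 12.5, 50.2 and 25.7. The next 4 lay outside protein-coding genes, nearest to Jph2, Ccn5, Nfkb1 and Enah, with day 4 folds from 43.9 to 41.7 and day 2 folds of 15.4, 8.87, 20.8 and 15.7. All 6 carried CTCF and MBD3 on all 4 days.

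The 6 strongest peaks of day 4 alone were each present on days 0 and 6. The first, chr18:60154427-60154727, lay 57277 bp from Gm4951 with folds of 9.46, 23.7 and 11.3 on days 0, 4 and 6, and the nearest day 2 peak was 307660 bp away. The second, chr16:74801330-74801673, lay deep inside Robo2, a receptor that guides axons, with folds of 10.7, 22.0 and 13.8. The others lay 33186 bp from Slc30a10 (a manganese exporter), 12432 bp from 6030458C11Rik, 30373 bp from Dennd3 (a Rab exchange factor) and inside Abraxas1 (a scaffold of a BRCA1 complex), with day 4 folds of 20.6, 20.5, 20.3 and 19.1. These peaks held from 57 to 97 fragments and were 243 to 344 bp wide. The widest of the class, 809 bp, reached an end of the calpain gene Capn11 and measured 847 and 417 bp on days 0 and 6.

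The strongest peaks of day 2 alone looked different. The first, chr5:10486436-10486984, was 549 bp wide with a fold of 11.8, lay 696031 bp from the nearest protein-coding gene end, and was on no other CTCF list. A day 2 MBD3 peak of fold 10.1 lay on it. The second, in Vps45 (a protein of vesicle fusion; chr3:96044534-96045034), had a fold of 10.4, a day 6 fold of 2.34 and a day 2 MBD3 fold of 8.65. The remaining 4 were 29535 bp from Cdh7, in the noncoding gene D5Ertd615e, in D5Ertd579e and Gm32584, and in Myo3a (an unconventional myosin), with folds from 10.4 to 9.00. Of the 6, 4 had a day 2 MBD3 peak, 1 had a day 0 CTCF peak and 1 a day 6 CTCF peak. The 3 widest, in Dnajc27, Eapp and 2410141K09Rik, measured 1400, 1385 and 1174 bp, had 3 to 5 summits and also carried MBD3 on day 2.

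A day 2 MBD3 peak lay on 172 of the day 2 alone peaks, 9.79% (8.44 to 11.3), and on 3.40% of the shared peaks of day 2. Peaks that neighbour each other carried this excess. Of the day 2 alone peaks in runs of 3 or more, counted below, 32.7% (27.3 to 38.5) had MBD3, of those in runs of 2 14.7% (10.1 to 20.3), and of the single ones 3.86% (2.87 to 5.07), close to the shared peaks. On day 4 the order was the opposite, with a day 4 MBD3 peak on 188 of the day 4 alone peaks, 1.80% (1.55 to 2.07), and on 28.0% of the shared peaks. The MBD3 lists held 1991 peaks on day 2 and 9006 on day 4, so the 2 days are not on 1 scale. Within deciles of fold the gap was 8.96 points on day 2 and -7.93 points on day 4 (alone minus shared).

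Runs were counted as stretches of neighbouring alone peaks with no other CTCF peak of either day between them. On day 4, 5355 alone peaks stood singly and 2070, or 19.8%, were in 601 runs of 3 or more with a median span of 100.3 kb. The longest run had 9 peaks over 3073 kb, chr2:44249277-47322103, across Arhgap15, Gtdc1 and Zeb2, the last a repressor of epithelial genes. Of its peaks 6 lay on a day 0 peak and 6 on a day 6 peak. The second, 8 peaks over 3481 kb on chr12:45466105-48946848, spanned the neuronal splicing factor gene Nova1 and 10 pseudogenes. Of the 4 runs with 7 peaks, the one with the lowest start was chrX:21424911-23328413, over Agtr2, Slc6a14 and Klhl13. Peaks in runs were on neither day 0 nor day 6 in 16.3%, close to the 13.5% of single ones.

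Runs of day 2 alone peaks were tighter and were largely missing from days 0 and 6. Single peaks numbered 1269, and 284 peaks, or 16.2%, made up 53 runs of 3 or more with a median span of 46.0 kb. Of the peaks in such runs 91.2% were on neither day 0 nor day 6, against 36.0% of single ones, and 15.5% overlapped a pseudogene, against 2.60%. A day 2 MBD3 peak lay on 93 of them. These runs are named from their values and not by the naming rule. The longest had 14 peaks over 141 kb at chr8:19790811-19931664, across 9530057J20Rik, with no CTCF peak of days 0 or 6 inside it. A run holds no day 4 peak by definition. The second had 12 peaks over 47.6 kb at chr8:20610851-20658431, across Gm21119, also with none on days 0 and 6.

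Counted in windows of 2 Mb, a choice also made after the values were seen, 6 windows had 20 or more day 2 alone peaks. They held 259 of the 1757, or 14.7%, and 254 of these were on neither day 0 nor day 6. Among the other 1498 this share was 39.4%. The fullest, chr4:146000001-148000000, had 68 alone among 92 day 2 peaks, and the nearest protein-coding gene was a zinc finger gene with a Zfp symbol, such as Zfp978 or Zfp982, for 62 of them and Rex2 for the other 6. In chr8:20000001-22000000, with 63 alone of 81, the nearest gene was Gm15319 for 28, Gm40469 for 13, Gm21119 for 12 and 9530057J20Rik for 8, and a defensin gene (antimicrobial peptides) for 2. In chr14:4000001-6000000, with 50 alone of 71, it was a predicted gene with a Gm symbol for 49, and in chr14:6000001-8000000 for 20 of 22. In chr4:144000001-146000000 it was Zfp980 for 13 of 32, Gm42346 for 9, Zfp990 for 5 and Gm13212 for 4. In chr8:18000001-20000000 it was 4930467E23Rik for 14 of 24 and 9530057J20Rik for 9.

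Summed over the windows, both antibodies gave most peaks on day 2. The windows were picked for day 2 alone CTCF peaks, so a CTCF excess on day 2, above all over day 4, follows from that choice. The MBD3 lists took no part in it. The 6 windows held 267, 390, 186 and 185 CTCF peaks on days 0, 2, 4 and 6, and 102, 176, 86 and 65 MBD3 peaks. As a share of the list this was 1.39% of day 2 CTCF peaks against 0.485% to 0.563% on the other days, and 8.84% of day 2 MBD3 peaks against 0.598% to 0.975%. The window chr14:6000001-8000000 was the exception, with 50, 46, 33 and 35 CTCF peaks and 19, 9, 12 and 10 MBD3 peaks on days 0, 2, 4 and 6. How reads from near-identical copies were placed is not given in the sources used here, and the part of copy number or of multiply mapped reads was not tested. Without the windows 94.6% of day 2 peaks overlapped a day 4 peak.

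**Figure D4:**
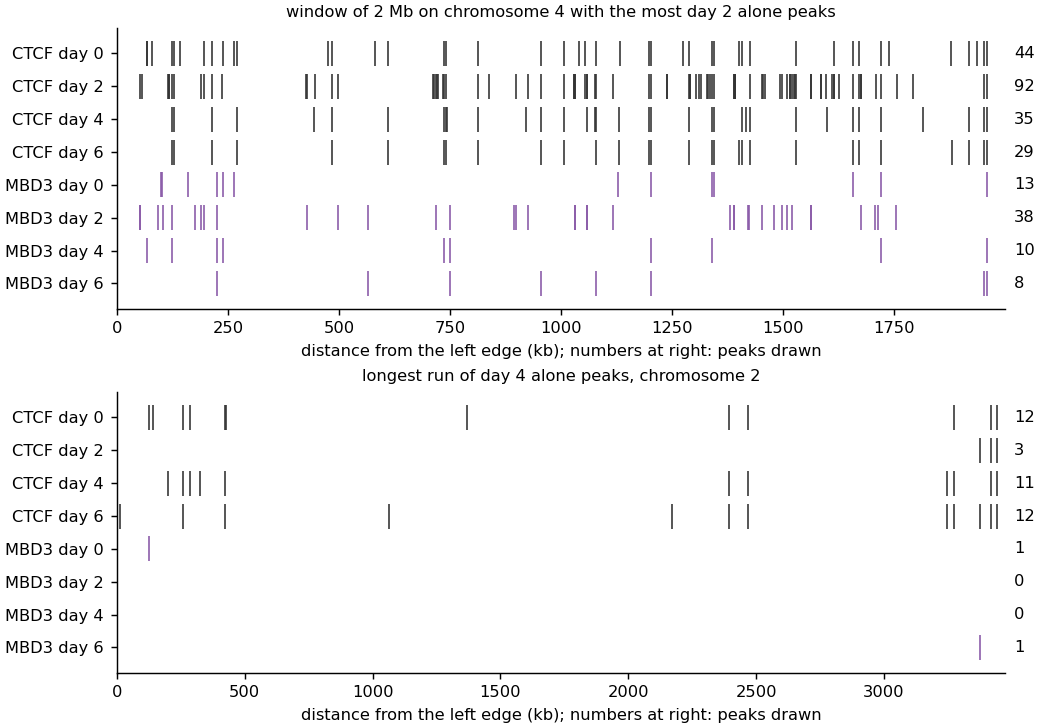
Summits of CTCF peaks (dark) and MBD3 peaks (violet) on days 0, 2, 4 and 6, 1 mark a peak, by distance from the left edge (kb, horizontal axis), with the number drawn at the right. In the chromosome 4 window day 2 has 92 CTCF and 38 MBD3 peaks against at most 44 and 13 on the other days, and in the longest run of day 4 alone peaks on chromosome 2 day 2 has 3 CTCF peaks, all beyond the run. The window was picked for its day 2 alone CTCF peaks, and a run of day 4 alone peaks holds no day 2 CTCF peak by definition.

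Zfp978 and Gm26650, the protein-coding genes with most day 2 alone peaks, lie in these windows. Zfp978 held 14 of them, with 7, 19, 6 and 6 CTCF peaks in all on days 0, 2, 4 and 6, and Gm26650 held 10, with 2, 11, 2 and 2. None of these alone peaks lay on a day 0 or day 6 peak. On day 4 the most alone peaks were in Gm37013 (15), Gm38666 (13) and Gm38667 (13), overlapping gene models across the protocadherin cluster of chromosome 18, so the peaks are largely the same ones. All 15 in Gm37013 lay on a day 0 peak and 10 on a day 6 peak. Fry, a long gene named for its part in cell shape in flies, held 9, of which 9 lay on a day 0 peak and 7 on a day 6 peak.

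Alone peaks had a shared peak close by less often. A shared peak lay within 10 kb of 24.1% of day 2 alone peaks (22.1 to 26.2) and 32.6% of day 4 alone peaks (31.7 to 33.5), against 38.6% and 38.5% of shared peaks. Counting any other peak of the same day, the gap was smaller, with 37.7% of day 2 alone against 39.7% of shared peaks, and 41.4% against 46.9% on day 4. The nearest peak of the other day was a median of 18817 bp from a day 2 alone peak and 18680 bp from a day 4 alone peak. Near misses were few, since 75 day 2 alone and 509 day 4 alone peaks had a peak of the other day within 1 kb that did not overlap.

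Chromosomes differed in the share alone. On day 2 it was highest on chromosome 14 at 15.7% (13.6 to 18.0), then 10.2% on chromosome 12, 9.82% on chromosome 8 and 9.21% on chromosome 4, and lowest on chromosome 11 at 3.21% (2.47 to 4.08). Chromosomes 4, 8 and 14 hold the windows above, and chromosome 12 holds none of them. On day 4 the X chromosome stood highest with 384 of 925 peaks alone, 41.5% (38.3 to 44.8), against 28.1% (27.6 to 28.5) on the autosomes, which ranged from 25.1% to 32.1%. The small Y counts, 3 of 17 and 9 of 23, allow no order.

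The X result turned with the measure held equal. Peaks on X had a median of 29 fragments on day 2 and 31 on day 4, against 54 and 52 on the autosomes. Within deciles of fold, day 4 peaks on X were found on day 2 less often than autosomal ones with a gap of -14.7 points (X minus autosomes). Within deciles of the fragment number they were found more often, by 5.21 points. On day 2 the X and autosomal shares alone were 5.25% and 6.26%.

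**Figure D5:**
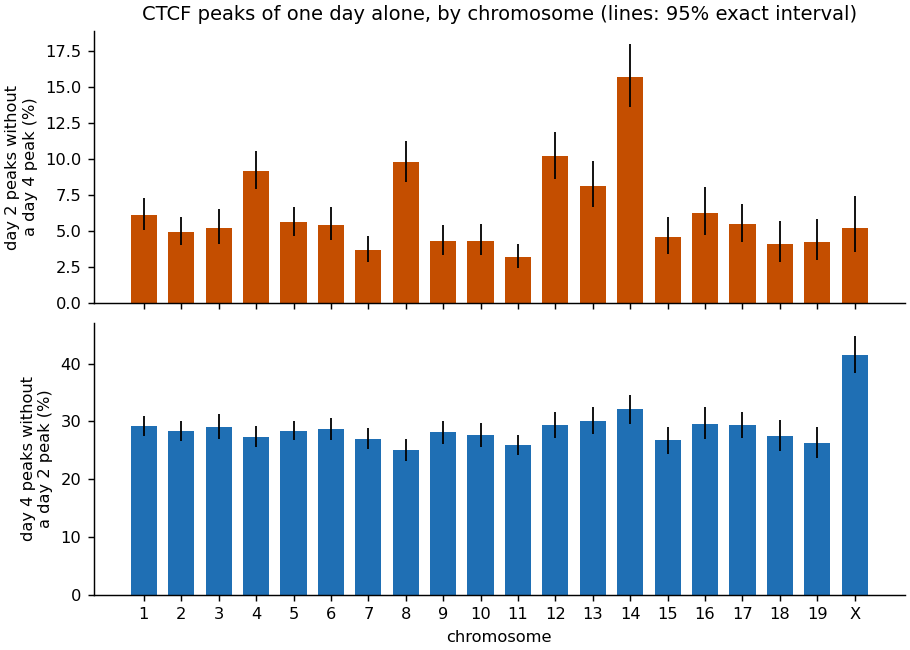
Share of CTCF peaks without a peak on the other day (%, vertical axes) by chromosome, day 2 list above and day 4 list below, with exact 95% intervals as lines and chromosome Y left out. Chromosome 14 stands highest on day 2 at 15.7%, and X on day 4 at 41.5%.

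In relation to genes the classes were alike in the large part and differed at gene ends. A protein-coding gene was overlapped by 51.1% of day 2 alone, 50.3% of day 4 alone and 49.9% of shared day 2 peaks, and no annotated gene by 36.5%, 40.6% and 40.5%. Within 1 kb of a protein-coding gene end lay 5.81% of day 2 alone peaks (4.76 to 7.0) and 12.1% of shared day 2 peaks, and 10.9% of day 4 alone peaks (10.3 to 11.5) and 12.3% of shared day 4 peaks. Peaks of low fold lay near gene ends more often, with 29.0% of shared day 4 peaks in the lowest decile and 10.3% in the highest, and the gap depended on what was held equal. Alone minus shared, it was -12.2 points on day 2 and -6.49 on day 4 within deciles of fold, and 1.84 and 6.33 points within deciles of fragments. Pseudogenes were overlapped by 4.89% of day 2 alone peaks, 1.36% of day 4 alone and 0.906% of shared day 2 peaks.

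Counted by gene, 3317 of 21887 protein-coding genes (15.2%) had CTCF within 1 kb of an end on both days, 1131 (5.17%) on day 4 and not day 2, and 91 (0.416%) on day 2 and not day 4. Of the 1131, 1030 also had a peak there on day 0, 870 on day 6 and 831 on both, and 62 on neither. Of the 91, 62 had one on day 0, 38 on day 6 and 28 on neither. In 58 of the 1131 and 6 of the 91 the peak itself was shared and its counterpart fell outside the 1 kb window. With a window of 5 kb the counts were 1846 and 212, and with lists of equal number 492 and 278.

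Lists of genes tied to CTCF, NuRD and early development had CTCF at an end on both days more often than all coding genes, largely through the protocadherins. Of 312 genes in 14 lists 308 matched, and of these 85 (27.6%) had CTCF at an end on both days, against 15.2% of all coding genes. Without the clustered protocadherins it was 44 of 251, or 17.5%. A further 19 (6.17%) had it on day 4 and not day 2, against 5.17% of all coding genes, and none on day 2 and not day 4, against 0.416%. Of the 19, 18 had a peak at an end on day 0, 15 on day 6 and 15 on both. Below, the folds of a gene are those of its strongest peak within 1 kb of an end on each day. The median fold of all shared sites was lower on day 2 than on day 4, so a lower day 2 fold does not by itself set a gene apart. Of the 19 day 4 peaks 10 were below the 30th percentile of fold in the day 4 list.

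The genes of CTCF and cohesin had the same status on both days, as most coding genes did. Of 18 matched, 7 had CTCF at an end on both days, Esco1, Smc3, Ctcfl, Pds5a, Pds5b, Ctcf and Stag2, and none on 1 day. Over all coding genes 15.2% had it on both days, 5.17% on day 4 and not day 2 and 0.416% on day 2 and not day 4. In a list of 18, none on 1 day only is near the last 2 of these shares. At Pds5b, a cohesin release and maintenance factor, the folds were 30.4, 10.4, 17.8 and 18.4 on days 0, 2, 4 and 6, and at Esco1, a cohesin acetyltransferase, 31.5, 7.79, 22.0 and 15.5. Of 15 NuRD genes 2 had a peak on both days, near the 15.2% of all coding genes. These were Hdac1 (histone deacetylase) and Cdk2ap1, with day 4 folds of 4.32 and 4.82. Of 12 genes of DNA methylation and its readers and removal, Mbd1 and Tet3 had CTCF on both days and Mbd4, a thymine glycosylase, on day 4 and not day 2, at a fold of 2.53 in the lowest percentile.

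The clustered protocadherins, cell surface proteins whose promoters are chosen with CTCF and cohesin, had the most CTCF of any list. Of 57 matched genes 41 had CTCF at an end on both days. On day 4 and not day 2 it was at 7 of them, 12.3% against 5.17% of all coding genes: Pcdha5, Pcdha9, Pcdha12, Pcdhb5, Pcdhb13, Pcdhb15 and Pcdhb16. Among genes with CTCF at an end on day 4 the order was the opposite, with 7 of 48 lacking it on day 2 against 1131 of 4448 coding genes. Over days 0, 2, 4 and 6 the number of these genes with a peak was 54, 41, 48 and 50, with day 2 the lowest. The CTCF lists stood in the same order, with 47414, 28137, 36787 and 38109 peaks. Of all coding genes 15.6% had CTCF at an end on day 2 and 20.3% on day 4. At Pcdhb5 the folds were 10.7, 8.80 and 9.40 on days 0, 4 and 6, and its day 4 peak held 33 fragments at the 51.8th percentile. Pcdhga3 and Pcdhac1 had CTCF on both days, with day 4 folds of 22.8 and 14.7 and day 2 folds of 6.23 and 6.25. Neighbouring genes of the cluster can share a peak, so these genes are not independent of each other.

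Of 39 Hox genes, which pattern the body axis, 8 had CTCF at an end on both days and Hoxd11 on day 4 and not day 2. Over all coding genes these shares were 15.2% and 5.17%, and the Hox counts do not set the list apart. Hoxd11 had folds of 6.44, 12.5 and 8.42 on days 0, 4 and 6, with 59 fragments on day 4 at the 77.4th percentile of that list. Hoxc10 and Hoxa5 had day 4 folds of 21.8 and 14.9 and day 2 folds of 10.6 and 5.73. Of 18 matched imprinted genes Peg10 had CTCF on both days, against 15.2% of all coding genes. Rasgrf1, Mest and Gnas had it on day 4 and not day 2, or 16.7%, against 5.17% of all coding genes. These are small counts, and the difference was not tested. At Rasgrf1, a Ras exchange factor expressed from the paternal copy, the folds were 8.31, 5.37 and 9.51 on days 0, 4 and 6. Mest had 6.79 and 4.22 on days 0 and 4 and no day 6 peak, and Gnas had 4.83, 4.11 and 4.40.

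Of 24 genes in the naive and core pluripotency list 2 had CTCF at an end on day 4, or 8.33%, against 20.3% of all coding genes. Tbx3 had it on both days and Zfp42 on day 4 and not day 2, but the Zfp42 peak is shared and its day 2 counterpart falls outside the window. The same applies to Sox17 (endoderm) and Acta2 (smooth muscle actin, in the feeder list). Of 17 neuroectoderm genes 3 had CTCF at an end on both days and 1 on day 4 and not day 2, of 20 mesoderm and endoderm genes 4 and 2, of 10 trophoblast genes 2 and 1, of 16 feeder genes 3 and 1, and of 20 cell cycle genes 4 and 1. Over all coding genes these shares were 15.2% and 5.17%. In lists of 10 to 20 genes the counts are near those shares. None of the 10 formative and primed genes had CTCF at an end on either day, and 6 had it on day 0. Over all coding genes 15.6% had it on day 2 and 20.3% on day 4, and a list of 10 is too small to set apart from these shares. Cer1, a secreted inhibitor of Nodal signalling, had folds of 4.51, 7.61 and 5.91 on days 0, 4 and 6, and Olig2, a neural factor, had 3.59 and 3.35 on days 0 and 4. Krt8, a keratin in the trophoblast list, had 7.23, 7.18 and 8.32 on days 0, 4 and 6 and MBD3 on each of those days. Myc had 6.68, 2.84 and 3.17, and its day 4 peak was in the lowest 2% by fold.

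Genes with strong CTCF on both days came from several lists. Trp53, the tumour suppressor, had folds of 30.5, 10.1, 20.5 and 31.0 on days 0, 2, 4 and 6 with MBD3 on every day. Tcf7l1, a transcription factor of Wnt signalling, had 17.5, 5.75, 17.6 and 15.8, and Socs3, which dampens LIF signalling, had 10.4, 4.60, 10.8 and 11.0. Of the 36 signalling genes 8 had CTCF at an end on both days and none on 1 of them. Over all coding genes 15.2% had it on both days, 5.17% on day 4 and not day 2, and 0.416% on day 2 and not day 4. In the feeder list Col1a1 and Pdgfra, which mark fibroblasts, had CTCF on both days, with day 4 folds of 15.9 and 9.62. Of the 16 genes in that list 3 had CTCF at an end on both days and 12 on neither, against 15.2% of all coding genes on both days.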

How the data were processed

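Chromatin precipitated with a CTCF antibody on days 2 and 4 was compared through the peak lists of the pooled samples. The submitters' processing notes name build mm10 and the tools MACS2 2.1.2, Bowtie2 2.3.4, bedtools 2.25.0, FastQC 0.11.7 and SAMtools 1.9, and per the labels' protocols libraries were amplified by PCR. The deposited lists give for each peak a display score (not used), the authors' fold enrichment (a ratio at the summit), and the authors' -log10 p and -log10 q, with a lowest -log10 q of 1.30. Library totals are not in the lists, so depth per sample is unknown.

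Rows with the same interval were merged to 1 peak with the summit of highest -log10 q. Fragments over the summit were worked back from fold and p to a tolerance of 0.1%, and tested on simulated data. Genes (21887 protein-coding) and promoters came from RefSeq tables of GRCm38.p6. Gaps within deciles compare classes inside each decile and average over deciles. Shares carry exact 95% intervals. Sites were named as the 6 of highest fold and 3 widest per class, 3 shared sites each way by width difference, the 3 longest day 4 alone runs, the genes holding most alone peaks, and up to 4 list genes per list on 1 day or 2 on both, by -log10 q. The members and lists were chosen with earlier results of these data known. Python 3.11.15, numpy 2.4.6, pandas 2.3.3 and scipy 1.17.1 were used. Alternatives were a stricter q, lists of equal number, other overlap rules, all scaffolds and a wider gene window.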

Additional observations from a re-analysis of the deposited data

Results flagged for a closer look

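Peaks outside chromosomes 1 to 19, X and Y were not part of the comparison. The day 2 CTCF list held 49 such peaks, 5 of them on chromosome M, and 33 overlapped a day 4 peak. The day 4 CTCF list held 52, with 13 on chromosome M, and 41 overlapped a day 2 peak. They are listed because they lie in data the comparison leaves out, and no control level was measured for them.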

How the results depend on the processing

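Of 79 alternative values of 15 results, 40 stayed within their limit (the counting interval, or 1.5 times for a count) and 39 did not, and no result had a test. With a -log10 q of 10 or more on both days, 97.0% of day 2 and 70.9% of day 4 peaks were shared. There were 654 day 2 alone peaks, with a median width of 222 bp, of which 81.2% lay on day 0 peaks, 74.5% on day 6 peaks and 8.56% at gene ends. The corresponding day 4 alone values were 249 bp, 90.0%, 91.8% and 9.71%, with 28.6% within 10 kb of a shared peak, and 60 genes had CTCF at an end on day 2 and not day 4. With equal numbers of peaks, 85.9% of day 2 and 85.7% of day 4 peaks were shared, leaving 3967 and 4015 alone. Day 2 alone peaks then had a median width of 206 bp, 68.0% on day 0, 63.2% on day 6 and 7.69% at gene ends. Day 4 alone peaks had 245 bp, 90.6% on day 0, 93.0% on day 6 and 33.6% within 10 kb of a shared peak, and the gene counts were 278 (day 2 and not day 4) and 492 (day 4 and not day 2). With sharing defined by summits within 100 bp, 93.1% of day 2 peaks were shared, and day 2 alone peaks had 48.6% on day 0, 41.8% on day 6, a median of 207 bp and 7.07% at gene ends. A 5 kb gene window gave 212 and 1846 genes, and 19.2% of day 2 alone and 26.7% of day 4 alone peaks. Leaving out the 6 windows, an alternative added after seeing the data, gave 94.6% of day 2 peaks shared and 50.7% and 42.1% of day 2 alone on days 0 and 6. The stricter q and the equal lists take out weak peaks by construction. They also turn a shared peak into an alone one where its counterpart is taken out. Of the day 2 alone peaks of the main comparison, 290 had a -log10 q of 10 or more, and 64.1% of these lay on a day 0 peak. Beyond that the cause was not tested. An overlap of 50% of the shorter peak and the inclusion of all scaffolds moved no value beyond its limit.

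No paired analysis was possible because each list pools its 3 samples and carries no replicate columns, and for the same reason leaving out a replicate was not possible. The depth of the libraries is unknown, so a peak missing from a list was not detected there rather than shown to be absent.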
